A study of Arabidopsis thaliana with 12 samples.

Results

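UPB1 (locus AT2G47270, also called UPBEAT1) was represented by 1 of 22746 probe sets that were not array controls, on arrays of cultured Arabidopsis cells treated with abscisic acid, a hydrogen peroxide scavenger or both. The gene was selected on its own levels in the 4 treatment groups, which are therefore given as a description and without a test. It is 1 of 13286 genes that a probe set names alone. A probe set is a group of short probes whose brightness is summarised as 1 value for a transcript. All 12 arrays carried RNA of T87, a single suspension cell line of the Columbia background (Col-0), taken when 5 days old and treated for 20 h. The 3 control samples received ethanol, 3 received 50 µM abscisic acid (ABA), 3 received 5 mM dimethylthiourea (DMTU), and 3 received ABA and DMTU at those concentrations. The DMTU arrays are also labelled with ethanol, and all groups shared a medium with sucrose and the auxin 1-naphthaleneacetic acid and a light and dark cycle. Neither the order in which ABA and DMTU were added nor whether replicates came from separate cultures is given in the labels, and the p-values therefore rest on a spread between samples that may be technical alone.

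UPB1 is a basic helix-loop-helix (bHLH) transcription factor known from the Arabidopsis root tip. There it represses peroxidase genes and so sets the balance of superoxide and hydrogen peroxide at the passage from cell division to elongation and differentiation. Class III peroxidases are secreted enzymes that use hydrogen peroxide to oxidise wall phenolics and can also produce reactive oxygen species, and ABA is the hormone of water deficit and seed dormancy. The study asked which genes ABA regulates in these cells and what DMTU, used to remove hydrogen peroxide, does to that response.

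Array 1 of the control group and array 1 of the ABA group stood apart from their replicates. Over all probe sets, the SD of the difference from another array of the group was 0.465 to 0.565 for these arrays, against 0.167 between the other control arrays and 0.174 between the other ABA arrays. To a lesser degree ABA+DMTU array 1 lay apart from its replicates (0.400 and 0.406, against 0.244), and DMTU array 3 from its own (0.316 and 0.353, against 0.210). Arrays with DMTU also differed in their controls: 5 of 6 pairs of 3' and 5' control probe sets and 4 of 4 spike-in controls, made from bacterial or phage sequences and added to the labelled material, averaged higher with DMTU than without it, with or without ABA. The first ubiquitin pair, a sign of RNA quality, had a mean 3' minus 5' difference (log2) of 0.92 in control and 0.67 in ABA arrays, against 1.36 with DMTU and 1.10 with ABA+DMTU. These controls moved with DMTU. A difference in handling between the arrays with and without DMTU therefore cannot be told apart from an effect of DMTU. The part of such a difference in the results below was not tested. No single gene defines T87 cells, and named probe sets covered 1 of 14 root, 2 of 12 leaf and 0 of 8 vascular marker genes.

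UPB1 was low in control and DMTU cells, higher in ABA cells and highest in cells given ABA with DMTU. The 3 control arrays read 4.52, 3.94 and 3.94 on the log2 scale, with a mean of 4.13 ± 0.34 (SD, n = 3). The DMTU arrays read 4.23, 3.65 and 4.11, with a mean of 4.0 ± 0.31 (SD, n = 3). The ranges of these 2 groups overlapped, and the difference of their means, -0.13, was smaller than either SD. The ABA arrays read 6.50, 5.81 and 6.18, with a mean of 6.16 ± 0.34 (SD, n = 3). The ABA+DMTU arrays read 7.61, 7.86 and 8.14, with a mean of 7.87 ± 0.26 (SD, n = 3). Every ABA array lay above every control and DMTU array, and every ABA+DMTU array lay above every ABA array.

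**Figure D1:**
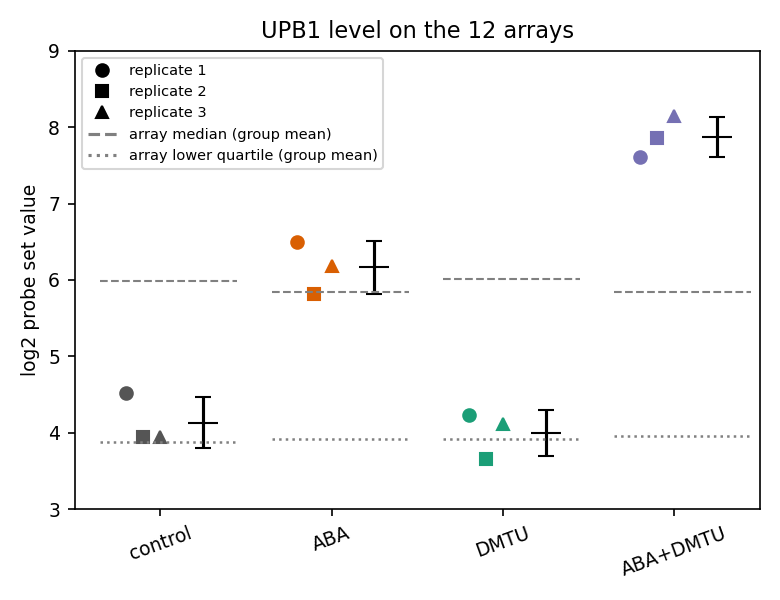
UPB1 level on each of the 12 arrays (log2 value, vertical axis) in the 4 treatment groups, with the group mean and SD of 3 arrays. Control and DMTU arrays overlap between 3.65 and 4.52, ABA arrays lie between 5.81 and 6.50, and ABA+DMTU arrays lie between 7.61 and 8.14.

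The place of UPB1 among all probe sets of its own array moved in the same order. In control arrays between 25.7% and 36.8% of probe sets read lower than UPB1, and in DMTU arrays between 15.9% and 33.1% did. In ABA arrays the share was between 49.6% and 56.7%, and in ABA+DMTU arrays between 70.8% and 77.0%. UPB1 thus passed from near the lower quartile of the array, which lay between 3.84 and 3.98, to above the array median, which lay between 5.78 and 6.05. Array values flatten at the low end, where a fold difference from a control level tends to be understated, and no detection calls were used.

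The difference between the ABA and control means of UPB1 was 2.03 ± 0.23 (SE of the fit, log2 scale), or 4.08-fold, and single ABA arrays exceeded single control arrays by 1.29 to 2.56. With DMTU present on both sides, ABA+DMTU exceeded DMTU by 3.87 ± 0.23, or 14.6-fold, and single arrays by 3.38 to 4.49. ABA+DMTU exceeded ABA alone by 1.71 ± 0.23, or 3.27-fold, and single arrays by 1.12 to 2.33. The ABA difference of UPB1 was thus larger with DMTU than without it, by 1.84 ± 0.33 on the log2 scale. These comparisons share arrays and are not independent of each other. Over all probe sets, 603 (2.65%) had a more positive difference than UPB1 between ABA and control, and 122 (0.536%) between ABA+DMTU and DMTU. For ABA+DMTU against ABA the number was 116 (0.51%), and for the difference between the ABA effects it was 75 (0.33%). In a bulk culture, more cells that make the transcript and more transcript per cell cannot be told apart.

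UPB1 was higher in ABA+DMTU than in ABA, and in ABA than in control or DMTU, also without the arrays that stood furthest apart, while the small difference between DMTU and control turned its sign. The ABA+DMTU and ABA arrays overlapped with no other group, so leaving out arrays could change how far they lay apart but not their order. Without array 1 of the control and ABA groups, UPB1 differed by 2.06 between ABA and control, 1.88 between ABA+DMTU and ABA and 0.06 between DMTU and control (log2). Leaving out any single array kept the difference between ABA+DMTU and ABA within 1.53 to 1.88 and that between ABA and control within 1.86 to 2.22. The ABA effect was larger with DMTU by 1.65 to 2.01 under the same omissions. Markers of other cell types did not all follow UPB1. EXPA7, an expansin gene of root hairs, read 3.58 to 4.46 over the 12 arrays and passed no test. It stayed below the array median on all 12 arrays, around the lower quartile, where a fall would be hard to measure. RCA, which encodes Rubisco activase and is abundant in leaf mesophyll, was higher in ABA+DMTU than in DMTU arrays by 1.08 ± 0.31 (SE, limma adjusted p = 0.017), a call lost without ABA+DMTU array 1 (adjusted p = 0.0658). PSAN, a subunit of photosystem I, was higher in that comparison by 1.85 ± 0.30 (limma adjusted p = 0.000469) and lower in DMTU than in control arrays by -2.61 ± 0.30 (limma adjusted p = 0.000336). The part of these changes in the UPB1 levels was not tested.

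Few probe sets showed 2 upward steps of at least 1 log2 unit each, as UPB1 did. In 26 of 22746 probe sets (0.114%), all ABA arrays lay above all control and DMTU arrays, all ABA+DMTU arrays lay above all ABA arrays, and each step in the means was at least 2-fold. Of these 26, 10 named a single gene, UPB1 among them. The pattern was drawn from the UPB1 levels on which the gene was selected, so the place of UPB1 among them restates that choice. Likeness to UPB1 was then measured as the root mean square difference between log2 profiles over the 12 arrays, each profile centred on its own mean. The median distance of the other 22745 probe sets was 1.61, the nearest lay at 0.36, and 4 lay within 0.5.

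The 8 genes nearest to UPB1 by this measure lay at 0.42 to 0.59 and were among the 20 nearest probe sets. The nearest, AT1G55265, averaged 4.96 in control and 7.74 in ABA arrays, against 5.21 with DMTU and 8.85 with ABA+DMTU. WAG2, which encodes a protein kinase that limits root waving, averaged 3.74, 5.72, 3.83 and 7.17 in the same order. The other 6 were AT4G13190, AT3G11600, AT4G37180, AT1G13930, AT4G16260 and AT5G24316, none of which has a symbol in the gene table. The genes were chosen for their likeness to UPB1 over the same arrays, so their shared steps restate that choice. AT1G13930 reached the highest ABA+DMTU mean of the 8, 12.10, and WAG2 the lowest, 7.17, although levels of different probe sets are not comparable as amounts of RNA. Ranked by Pearson correlation instead, 1 of the 8 remained among the nearest 8, and without array 1 of the control and ABA groups 5 remained, so the membership of this set depends on the measure.

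**Figure D2:**
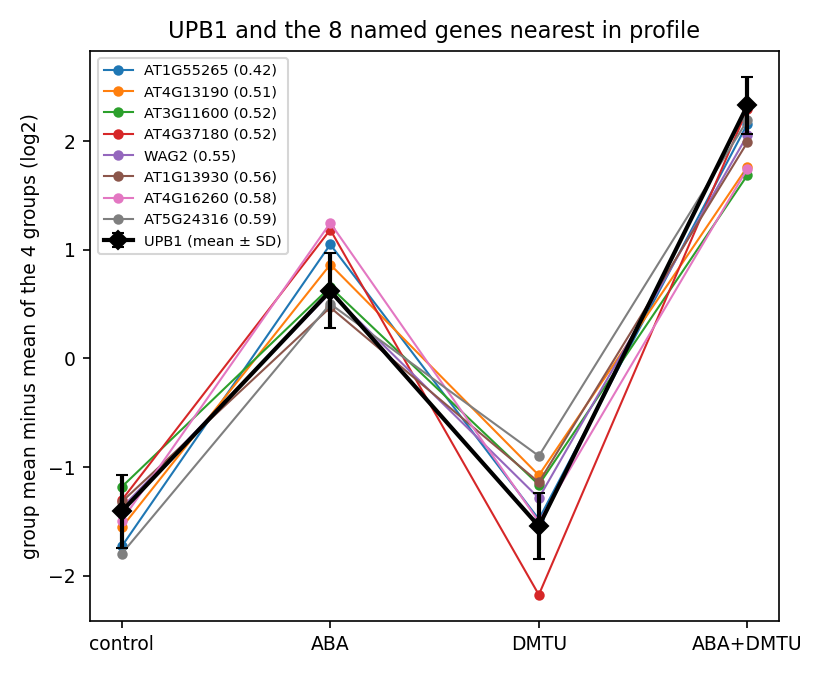
Group means of UPB1 and of the 8 genes nearest to it, each as the log2 difference from the mean of its 4 groups (vertical axis), by group (horizontal axis). The 8 genes lie at distances of 0.42 to 0.59 from UPB1 and were chosen for this likeness.

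The 3 peroxidase genes reported as direct targets that UPB1 represses in the Arabidopsis root, AT4G11290, AT4G16270 and AT5G17820, were all measured. None of the 3 passed the test in any of the 5 comparisons, by limma with Benjamini-Hochberg adjustment over 22746 probe sets at an adjusted p under 0.05, and 0 had an unadjusted p under 0.05. Of all probe sets, 35.2% passed for ABA against control, 39.4% for ABA+DMTU against DMTU, 14.2% for ABA+DMTU against ABA, 17.6% for DMTU against control and 2.8% for the interaction. The interaction subtracts the ABA effect in the absence of DMTU from that in its presence. With 3 members, the count is a description of these genes and not of a group.

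AT4G11290 read 3.91, 4.09 and 4.07 in control arrays, 4.24, 3.96 and 4.12 in ABA, 3.70, 4.14 and 4.07 in DMTU, and 3.94, 3.83 and 3.97 in ABA+DMTU. AT4G16270 read 4.0, 3.74 and 3.72 in control, 3.95, 3.78 and 3.96 in ABA, 3.53, 3.61 and 3.64 in DMTU, and 3.94, 3.43 and 3.60 in ABA+DMTU. Both stayed below the array median on all 12 arrays, near the lower quartile, where a further fall would be hard to measure. Their differences between ABA and control were 0.08 ± 0.13 (SE, limma adjusted p = 0.723) for AT4G11290 and 0.08 ± 0.14 (limma adjusted p = 0.745) for AT4G16270. Between ABA+DMTU and ABA, where UPB1 stood 1.71 higher, they were -0.19 ± 0.13 (limma adjusted p = 0.374) and -0.23 ± 0.14 (limma adjusted p = 0.293).

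AT5G17820 read well above the array median. It read 10.58, 10.26 and 10.28 in control arrays, 10.11, 9.93 and 9.91 in ABA, 10.78, 11.12 and 10.13 in DMTU, and 9.42, 10.93 and 11.02 in ABA+DMTU. ABA arrays all lay below control arrays, by a mean of -0.39 ± 0.37 (SE, limma adjusted p = 0.495), while ABA+DMTU arrays, at 9.42 to 11.02, overlapped all other groups. Between ABA+DMTU and ABA the difference was 0.47 ± 0.37 (limma adjusted p = 0.451), and between ABA+DMTU and DMTU it was -0.22 ± 0.37 (limma adjusted p = 0.702). ABA+DMTU array 1 decided this: without it AT5G17820 was higher in ABA+DMTU than in ABA by 0.99 (limma adjusted p = 0.022).

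**Figure D3:**
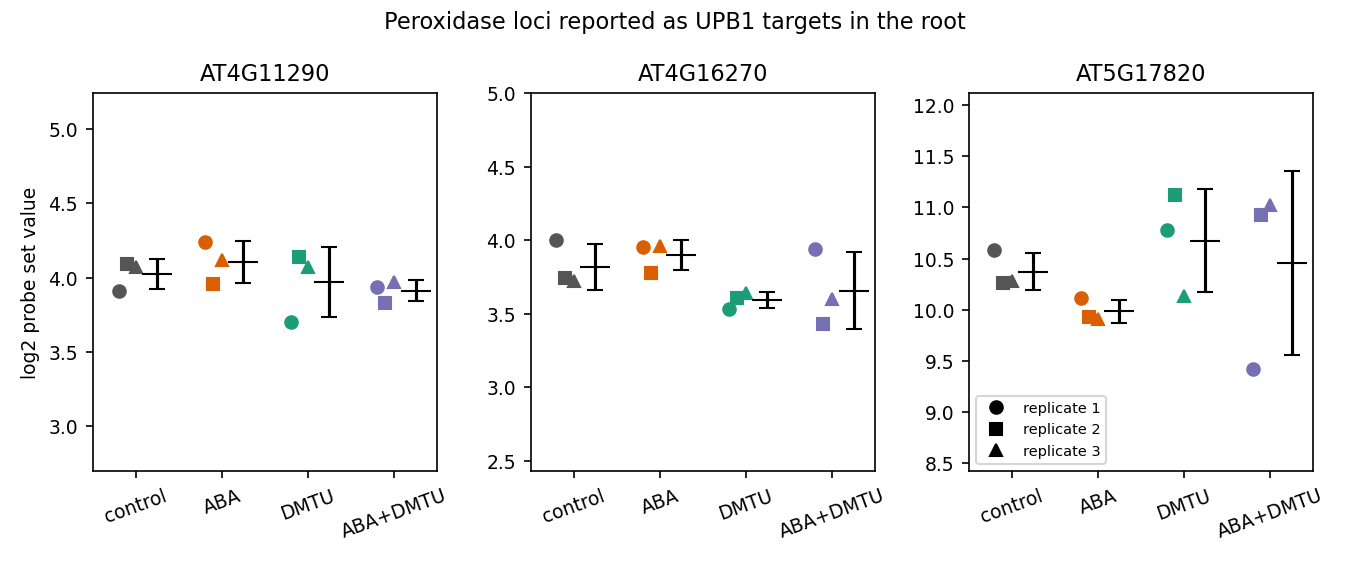
Levels on each array (log2 value, vertical axis) of the 3 reported target peroxidases in the 4 groups, with the group mean and SD of 3 arrays, each gene on its own axis range. AT4G11290 and AT4G16270 stay between 3.43 and 4.24 in all groups, and AT5G17820 between 9.42 and 11.12.

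Over all 55 measured class III peroxidases, low signals included, the shares that rose and fell with ABA lay near those of all probe sets. Among members kept by a filter on low values, a larger share fell than among the probe sets kept. Of 73 family members listed by locus, 55 had a probe set naming a single gene, and 29 of these were below the array median on all 12 arrays. With ABA against control, 10 of the 55 rose (18.2%, against 15.5% of all probe sets) and 14 fell (25.5%, against 19.8%), and 31 did not pass the test. The family median change was 0.01 (log2), the same as over all probe sets. With DMTU on both sides, 8 rose (14.5%, against 18.8%) and 11 fell (20.0%, against 20.6%), and the family median was 0.03, again the same as over all probe sets. In both comparisons 6 genes rose (10.9%, against 11.6% of all probe sets) and 10 fell (18.2%, against 15.7%). In opposite directions 0 passed, against 0.171% of all probe sets. The filter on low values, which required 3 arrays above the median, kept 24 peroxidases and 12816 probe sets. Of these, 6 peroxidases rose and 14 fell for ABA against control, beside 3090 and 3949 probe sets. With DMTU on both sides 4 peroxidases rose and 11 fell, beside 3749 and 3952 probe sets.

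AT4G26010 and AT1G68850 rose most with ABA alone, by 5.67 ± 0.55 (SE, log2; limma adjusted p = 1.46e-05) and 5.56 ± 0.43 (limma adjusted p = 2.76e-06). AT2G35380 rose by 4.61 ± 0.30 and AT5G14130 by 3.71 ± 0.25. These are known here by locus, and the gene table gives them no symbol. PRX52, a named member of the family, read 11.75, 12.06 and 12.23 in control arrays, 13.57, 13.58 and 13.60 in ABA, 11.72, 11.30 and 11.50 in DMTU, and 12.88, 12.89 and 13.04 in ABA+DMTU. PRX52 rose with ABA by 1.57 ± 0.14 (limma adjusted p = 6.66e-06) and with DMTU present by 1.43 ± 0.14 (limma adjusted p = 1.03e-05). It was chosen as an example after its values were seen.

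Prx37 fell furthest with ABA. It read 6.70, 9.60 and 9.90 in control arrays, 3.27, 3.58 and 3.52 in ABA, 8.62, 8.55 and 8.05 in DMTU, and 3.38, 3.71 and 3.26 in ABA+DMTU, so that arrays with and without ABA did not overlap. The change was -5.27 ± 0.63 (SE, limma adjusted p = 6.69e-05) without DMTU and -4.96 ± 0.63 (limma adjusted p = 8.02e-05) with it. AT5G64120, listed with the synonym PRX71, changed by -4.09 ± 0.60 and -2.56 ± 0.60. AT5G06730 and AT4G33870 changed by -2.87 ± 0.29 and -2.80 ± 0.26 with ABA alone. With DMTU present, AT4G36430 changed by -2.46 ± 0.38 and AT5G40150 by -2.35 ± 0.16.

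**Figure D4:**
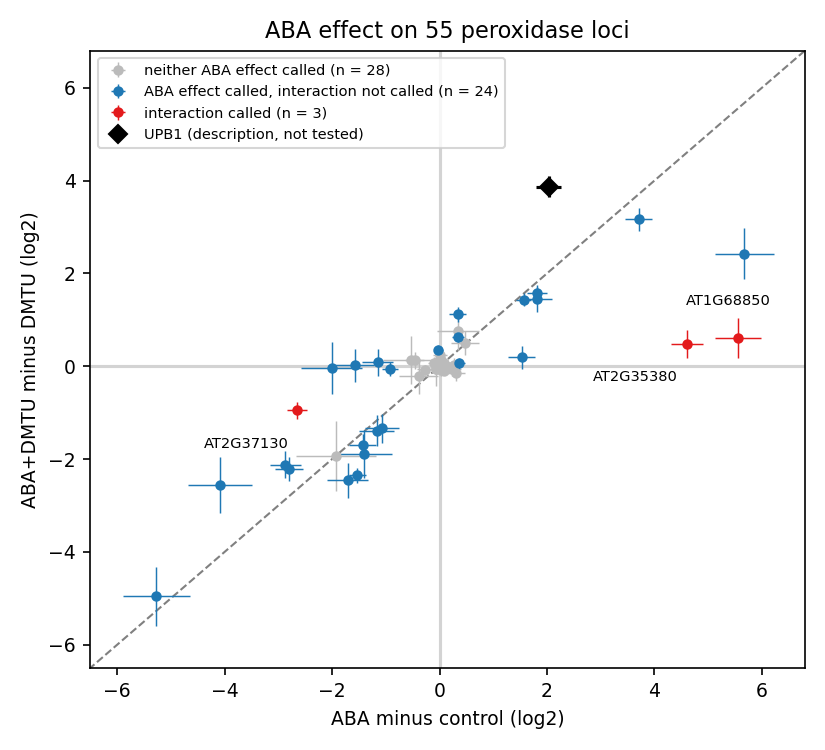
Each point is 1 of 55 class III peroxidases, with its ABA effect without DMTU on the horizontal axis and with DMTU on the vertical axis (log2 differences of group means, bars are SEs), and the diamond is UPB1 at 2.03 and 3.87, above the dashed line of equal effects. Colours separate 28 genes with neither ABA effect nor interaction past the test, 24 with an ABA effect and 3 with an interaction.

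Comparing ABA+DMTU with ABA, the step at which UPB1 rose further, 3 peroxidases were higher (5.45%, against 7.36% of all probe sets) and 9 were lower (16.4%, against 6.86%). The family median change was -0.01, against 0.05 over all probe sets. AT1G68850 was lower by -5.36 ± 0.43 (SE, limma adjusted p = 2.6e-05), AT2G35380 by -4.07 ± 0.30, AT4G26010 by -2.99 ± 0.55 and AT4G36430 by -2.83 ± 0.38. The 3 that were higher were AT5G19890 at 0.78 ± 0.16 (limma adjusted p = 0.0073), AT5G19880 at 1.43 ± 0.39 and AT5G64120 at 1.98 ± 0.60 (limma adjusted p = 0.0494). The calls of AT5G19880 and AT5G64120 were lost under some of the alternatives tried.

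With DMTU alone, where UPB1 overlapped its control range, more of the family was lower than higher. Of the 55, 8 were lower in DMTU than in control arrays (14.5%, against 8.26% of all probe sets) and 1 was higher (1.82%, against 9.39%). The family median was -0.06, against 0.03 over all probe sets. AT5G39580 changed by -2.81 ± 0.29 (SE, limma adjusted p = 0.000153), AT4G36430 by -2.08 ± 0.38, AT1G30870 by -1.44 ± 0.36 and AT2G37130 by -1.43 ± 0.19. The call of AT1G30870 (limma adjusted p = 0.0183) was lost in 5 of the omissions of a single array (adjusted p up to 0.0638). AT5G40150 was the gene that was higher, by 1.04 ± 0.16 (limma adjusted p = 0.00176). Of the 9 peroxidases lower in ABA+DMTU than in ABA, 5 were also lower in DMTU than in control, which is 9.09% of the 55, against 2.97% of all probe sets lower in both. The control probe sets of array quality moved with DMTU in both comparisons, as given above.

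The ABA effect itself differed with DMTU for 3 of the 55 peroxidases, 1 upward (1.82%, against 1.16% of all probe sets) and 2 downward (3.64%, against 1.65%). AT1G68850 read 4.10, 3.70 and 4.04 in control arrays, 10.85, 8.80 and 8.86 in ABA, 3.32, 3.56 and 3.74 in DMTU, and 3.89, 4.15 and 4.38 in ABA+DMTU. AT2G35380 read 3.48, 3.43 and 3.62, then 8.94, 7.75 and 7.68, then 3.38, 3.67 and 3.66, and then 3.66, 4.08 and 4.43 in the same order of groups. Both were high in ABA arrays and in no other group. Their ABA effects were smaller with DMTU by -4.95 ± 0.61 (SE, limma adjusted p = 0.00217) for AT1G68850 and -4.13 ± 0.42 (limma adjusted p = 0.000584) for AT2G35380. With DMTU present, the ABA differences were 0.60 ± 0.43 (limma adjusted p = 0.32) and 0.48 ± 0.30 (limma adjusted p = 0.238). UPB1 differed in the opposite direction, with an ABA difference larger by 1.84 with DMTU.

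AT2G37130 fell less with ABA when DMTU was present. It read 11.59, 11.32 and 11.50 in control arrays, 8.44, 9.11 and 8.91 in ABA, 10.13, 10.07 and 9.93 in DMTU, and 9.46, 8.80 and 9.01 in ABA+DMTU. DMTU arrays lay below control arrays, and the 2 groups with ABA overlapped. The ABA effects were -2.65 ± 0.19 without and -0.95 ± 0.19 with DMTU, a difference of 1.69 ± 0.27 (SE, limma adjusted p = 0.00903). AT4G26010 had the same direction as AT1G68850, with an interaction of -3.24 ± 0.78 that did not pass the test (limma adjusted p = 0.0544), and its ABA+DMTU arrays were spread, at 5.00, 6.76 and 7.85.

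Without array 1 of the control and ABA groups, which stood apart, 11 peroxidases rose and 14 fell with ABA, against 17.6% and 20.2% of all probe sets. With DMTU on both sides 11 rose and 12 fell, against 23.0% and 23.4%. In ABA+DMTU against ABA 2 were then higher and 12 lower, against 9.27% and 9.18%, and in DMTU against control 2 were higher and 9 lower, against 10.8% and 9.76%. The interaction then passed for 8, of which 5 were upward and 3 downward, against 2.48% and 2.99%.

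**Figure D5:**
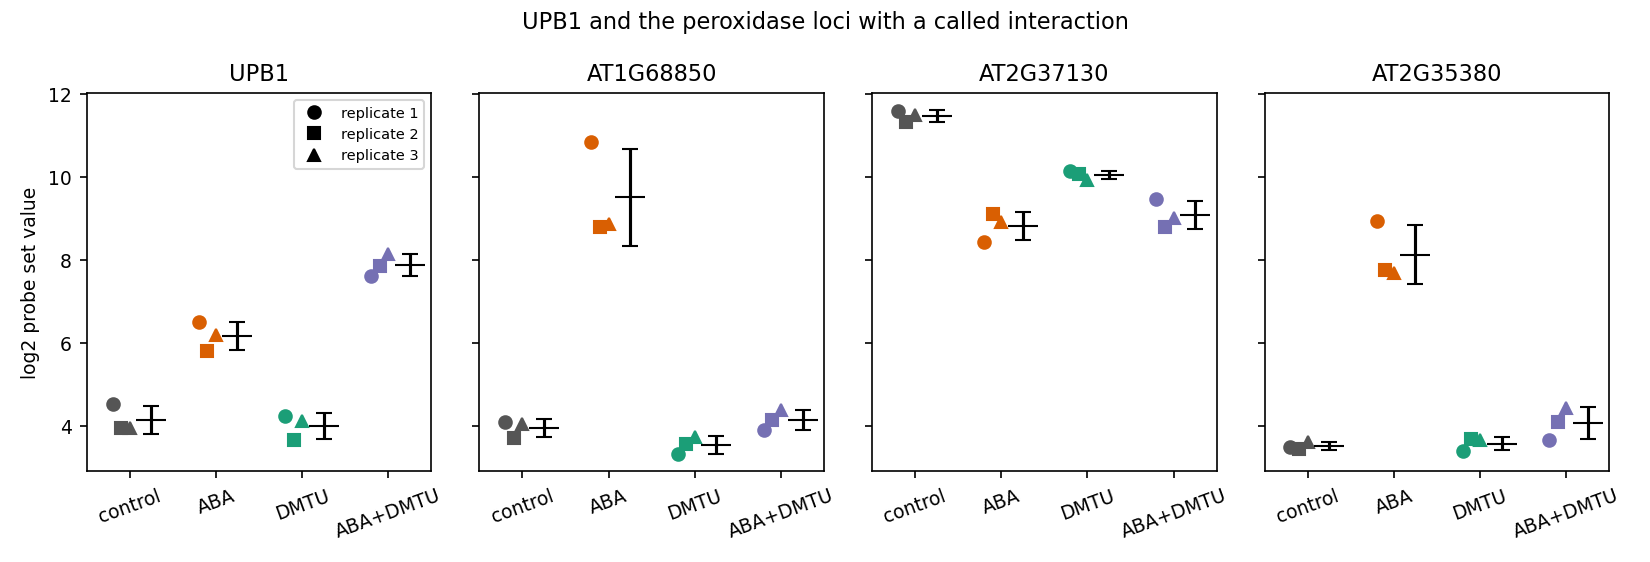
Levels on each array (log2 value, vertical axis) of UPB1 and of the 3 peroxidases whose ABA effect differed with DMTU. UPB1 is highest in ABA+DMTU arrays, AT1G68850 and AT2G35380 are at 7.68 or above in ABA arrays and at or below 4.43 in all others, and AT2G37130 is lower in both groups with ABA than in both without.

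Enzymes that make or remove reactive oxygen species were thinly covered. NADPH oxidases produce superoxide at the plasma membrane, and 3 of 10 listed genes were measured. AT1G19230 read 3.47, 3.76 and 3.98 in control arrays, 8.32, 5.60 and 6.11 in ABA, 4.06, 3.91 and 3.78 in DMTU, and 4.10, 5.39 and 5.05 in ABA+DMTU. It rose with ABA alone by 2.94 ± 0.57 (SE, limma adjusted p = 0.00169), and with DMTU present the difference was 0.93 ± 0.57 (limma adjusted p = 0.235). The difference between these effects, -2.01 ± 0.80, did not pass the test (limma adjusted p = 0.253). AT4G11230 fell in both ABA comparisons, by -0.47 ± 0.11 and -0.96 ± 0.11, at levels near the lower quartile, and AT4G25090 passed in no comparison.

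Of 27 listed genes that remove hydrogen peroxide or superoxide, 3 were measured. For ABA against control 0 passed by limma, against 35.2% of all probe sets, with 0 at an unadjusted p under 0.05. TAPX, the thylakoid ascorbate peroxidase, was higher in ABA+DMTU than in DMTU by 0.69 ± 0.23 (SE, limma adjusted p = 0.0353). SAPX, the stromal ascorbate peroxidase, was lower in ABA+DMTU than in ABA by -1.09 ± 0.33 (limma adjusted p = 0.048). AT3G56350 passed in no comparison. Both ascorbate peroxidase calls were lost under some of the alternatives tried. None of 9 listed root meristem regulators of reactive oxygen species and none of 15 listed small atypical bHLH genes had a named probe set.

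Cell division genes, which mark the state that UPB1 is known to help end in the root, fell with ABA whether or not DMTU was present. All 4 measured of 23 listed were called lower in both comparisons, against 19.8% and 20.6% of all probe sets. PRL, a subunit of the helicase that licenses DNA replication, fell by 3.54 with ABA alone and by 3.87 with DMTU present. AUR1, AUR2 and AUR3 encode Aurora kinases, which act in mitosis. AUR1 read 7.39, 8.49 and 8.54 in control arrays, 4.25, 5.25 and 4.92 in ABA, 9.05, 9.19 and 9.49 in DMTU, and 4.85, 4.79 and 5.34 in ABA+DMTU. It changed by -3.33 ± 0.32 (SE, limma adjusted p = 1.35e-05) with ABA alone and -4.25 ± 0.32 (limma adjusted p = 1.94e-06) with DMTU present. AUR2 changed by -2.02 and -3.20, and AUR3 by -1.85 and -2.96.

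In the comparison of ABA+DMTU with ABA, UPB1 differed by 1.71 and 0 of the 4 division genes passed by limma. Of all probe sets 14.2% passed there, and 0 of the 4 had an unadjusted p under 0.05. In ABA arrays the 4 already averaged between 4.06 (PRL) and 4.96 (AUR2), against array lower quartiles of 3.84 to 3.98. A further fall would therefore be hard to measure. Of the 4, 3 were higher in DMTU than in control arrays, against 9.39% of all probe sets. AUR1 was higher by 1.10 ± 0.32 (SE, limma adjusted p = 0.0378), AUR3 by 0.93 ± 0.16 and PRL by 0.65 ± 0.18. The call of AUR1 was lost in 6 and that of PRL in 5 of the omissions of a single array, with adjusted p up to 0.124 and 0.0834, while that of AUR3 held in each. The ABA effect on AUR3 was more negative with DMTU by -1.12 ± 0.22 (limma adjusted p = 0.0238), a call lost when any of several single arrays was left out. AUR3 averaged 6.07 in control and 7.0 in DMTU arrays, against 4.23 in ABA and 4.04 in ABA+DMTU arrays. Its difference between ABA+DMTU and ABA was -0.18 ± 0.16 (limma adjusted p = 0.493).

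The 3 measured of 15 listed ABA response markers, which encode dehydrin and cold-regulated proteins, rose with ABA in both comparisons. Of all probe sets, 15.5% and 18.8% rose. LTI30 rose by 6.47 ± 0.50 (SE, limma adjusted p = 2.66e-06) without and 5.60 ± 0.50 with DMTU, COR47 by 4.56 ± 0.45 and 6.17 ± 0.45, and COR15A by 4.96 ± 0.27 and 5.43 ± 0.27. COR15A read 8.42 to 9.64 in ABA and 9.60 to 9.95 in ABA+DMTU arrays, and its difference between those groups was 0.53 ± 0.27 (limma adjusted p = 0.24). LTI30 was also higher in ABA+DMTU than in ABA, by 1.84 ± 0.50 (limma adjusted p = 0.0315), a call lost without ABA array 1, ABA+DMTU array 2 or ABA+DMTU array 3 (adjusted p up to 0.114). It was higher in DMTU than in control, by 2.71 ± 0.50 (limma adjusted p = 0.0042). LTI30 read 7.00 to 7.62 in DMTU and 4.33 to 4.78 in control arrays, whereas UPB1 overlapped between these groups.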

How the data were processed

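RNA of 12 T87 cell samples was labelled with a 3' kit for single-colour Affymetrix arrays, per the labels' protocols. The authors deposited log2 values, 1 for each probe set, which were analysed as they stood. The submitters' processing notes name RMA and limma without role or version. Whether the arrays were normalized jointly is not given in the sources used here. Precision is limited by the number of arrays.

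Of 22810 probe sets, 64 controls were removed. The platform table supplied names 1 gene for 13513, of which 13436 matched the gene table. Genes with no named probe set are not analysed here. limma 3.58.1 (R 4.3.3) estimated a mean per group over 12 arrays with 8 residual degrees of freedom and eBayes moderation. Tests were two-sided, with Benjamini-Hochberg adjustment over 22746 probe sets and a threshold of 0.05. The fit was tested on simulated data. Python 3.11.15, pandas 2.3.3 and matplotlib 3.10.9 made the tables and plots.

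The gene and the lists were chosen with earlier results of these data known. Peroxidase membership came from a list of loci written from general nomenclature. There were 11 such lists, and annotated bHLH and thiol redox genes were added once coverage was known. The text names UPB1, its reported targets, up to 4 called peroxidases per direction and comparison, up to 2 called members of other lists (all where 5 or fewer were measured) and the 8 nearest profiles. PRX52 was added as an example.

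Groups share replicate numbers. Deviations of same-numbered control and ABA arrays correlated at 0.52, 0.42 and 0.39, but other comparisons did not at every number, and no label says what a number marks. Alternatives were the replicate block, array weights, median centring, quantile normalization, a filter on low values and leaving out arrays.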

Additional observations from a re-analysis of the deposited data

Results flagged for a closer look

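The ABA effect differed with DMTU, by the interaction test in limma, for 5 of the named genes. The ABA effect with DMTU minus that without it was -4.95 (log2) for the peroxidase AT1G68850, -4.13 for the peroxidase AT2G35380 and 1.69 for the peroxidase AT2G37130. It was -1.12 for AUR3, an Aurora kinase gene, and -1.19 for BHLH101, a bHLH gene that read 4.90 to 5.40 in DMTU arrays and 3.63 to 4.22 in all others. AUR3 averaged 6.07 in control and 7.0 in DMTU arrays, against 4.23 in ABA and 4.04 in ABA+DMTU arrays. For BHLH101 the limma adjusted p was 0.0373, and the call was lost under some of the alternatives.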

How the results depend on the processing

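UPB1 kept its order of ABA+DMTU above ABA above control under all 18 alternatives. Leaving out arrays could not change this order, because the arrays of these groups did not overlap. In this balanced design the replicate block and the filter on low values also leave the UPB1 differences as they were. Of 69 named gene and comparison pairs that passed the test, 55 passed under every alternative run for them, 14 were lost under at least 1, and 0 reversed. The filter on low values left no value for 9 of the pairs. The replicate block left the UPB1 differences at 2.03, 3.87, 1.71, -0.13 and 1.84, lost 0 of the 69 pairs, and called 25, 19, 13, 9 and 3 peroxidases and 8068, 8916, 3320, 4231 and 583 probe sets in the 5 comparisons. It added calls of SAPX in ABA+DMTU against DMTU and in DMTU against control, of AUR2 in DMTU against control and of PSAN in ABA+DMTU against ABA. AT3G21770 in ABA against control, AT1G44970 in ABA+DMTU against ABA and bHLH104 in DMTU against control were also gained. Outside the 69 pairs, the thiol redox gene TO2 lost its call in ABA+DMTU against DMTU (limma adjusted p = 0.0495 without and 0.0527 with the block). Centring arrays on their medians shifted the median change by 0.15 for ABA against control and 0.17 for ABA+DMTU against DMTU. Then 5036 probe sets were higher and 3522 lower (3518 and 4496 without centring) in the first, and 6753 and 3765 (4274 and 4682) in the second, while UPB1 differed by 2.18 and 4.04. With array quality weights, 12891 probe sets passed for ABA against control, 7542 for ABA+DMTU against ABA, 8008 for DMTU against control and 3097 for the interaction. Under these weights 24, 17 and 12 of 55 peroxidases and 7, 7 and 3 of 13 genes of the other lists passed in the last 3 of these comparisons. The 13 are the measured genes of reactive oxygen removal, NADPH oxidases, cell division and ABA response. Without weights 2, 4 and 1 of them passed in these comparisons. Weights also called 1 reported target for ABA against control (AT4G16270, 0.20) and 2 for ABA+DMTU against ABA (AT4G16270, -0.34, and AT5G17820, 0.85). Without array 1 of control and ABA, 8 peroxidases and 1243 probe sets passed for the interaction. For ABA+DMTU against ABA, 4 of the 13 genes of the other lists then passed, beside 4197 of 22746 probe sets. Under quantile normalization 4 of the 13 passed in that comparison, beside 3224 probe sets. The nearest 8 profiles shared 1 gene under Pearson correlation and 5 without those arrays. Leaving out single arrays gave 3 to 5 peroxidases (5 without ABA array 1, control array 1 or ABA+DMTU array 1) and 291 to 795 probe sets for the interaction, lowest without DMTU array 2. It gave 2559 to 4537 probe sets for DMTU against control, lowest without DMTU array 2. For ABA+DMTU against ABA it gave 2160 to 4356 probe sets and 0 to 5 of the 13 genes of the other lists. Of the 13, 2 to 6 passed for DMTU against control and 0 to 1 for the interaction. Of the 3 reported targets, 0 to 1 passed for ABA+DMTU against ABA. The cause of these shifts was not tested. Signals near the lower quartile, where 17 of 55 peroxidases stayed in every group, limit what a fall could show.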

Other observations

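Of 31 genes that the gene table names as bHLH, 7 were measured. For ABA against control 0 passed by limma, against 35.2% of all probe sets, with 2 at an unadjusted p under 0.05. With DMTU on both sides, 3 passed (42.9%, against 39.4% of all probe sets). Among them were bHLH115, which rose by 0.63 (log2), and BHLH101, which changed by -1.20. The bHLH115 call was lost in 4 of the omissions of a single array (adjusted p up to 0.115). BHLH101 was higher in DMTU than in control arrays by 1.44. Between ABA+DMTU and ABA, where UPB1 differed by 1.71, 0 of the 7 passed by limma, against 14.2% of all probe sets. At an unadjusted p under 0.05 there were 0.

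Of 73 annotated thiol redox genes, 13 were measured, of which 2 passed for ABA against control (15.4%, against 35.2% of all probe sets). With ABA alone PRXIIF, a peroxiredoxin, rose by 0.57, a call lost in 4 of the omissions of a single array (adjusted p up to 0.119), and ty2, a thioredoxin, changed by -0.67. With DMTU on both sides 4 passed (30.8%, against 39.4% of all probe sets), among them the thioredoxins THX and TRXF2, which rose by 0.82 and 0.63. Another of the 4, TO2, lost its call with the replicate block. These lists were added after the coverage of the arrays was seen.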
